A study of Homo sapiens with 3 samples.

Results

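The genes described here are 45 genes of DNA replication and mitosis, taken by symbol from a list of known cell cycle genes, among the 19220 genes of the count table. They fall into 27 genes of the S phase, in which DNA is copied, and 18 genes of the G2 phase and mitosis (G2/M). All 45 were found in the table, and all 45 passed the filter on low counts, which asked for 10 or more counts on average and kept 13676 genes. The lowest count of any of the 45 genes in any library was 301 and the highest was 21836.

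RNA-seq of 3 libraries was analysed, with 1 library for each line. CAL27 is a human oral squamous cell carcinoma (OSCC) line, here the parental cells, labelled wild type and grown in drug-free medium. CAL27/5FU is the 5-fluorouracil-resistant line derived from CAL27 by raising the dose stepwise and kept in medium with 10 μM 5FU, a drug that blocks the synthesis of thymidylate. CAL27/OXA is the oxaliplatin-resistant derivative, kept in medium with 10 μM OXA, a platinum drug that crosslinks DNA. The resistant lines were kept in drug and the parental cells were not, so that resistance and the presence of the drug cannot be told apart. The libraries held 41786182, 37297713 and 43455488 counts for CAL27, CAL27/5FU and CAL27/OXA, and they bear on 3 comparisons, of each resistant line with CAL27 and of the resistant lines with each other. With 1 library per line there was no replicate check and no test. Each log2 ratio is therefore given with a 95% interval computed from both counts (exact, Clopper-Pearson), which covers counting error only. Ratios were taken after TMM scaling, which sets most genes near 0, and genes were counted past 1.5-fold (0.585 on the log2 scale) and past 2-fold in each direction. Both comparisons with CAL27 rest on the same CAL27 library.

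The squamous origin of the cells was visible in all libraries, although its keratins were much lower in the resistant lines. KRT5, a keratin of basal squamous epithelium, had 2973 FPKM in CAL27 against 536 in CAL27/5FU and 726 in CAL27/OXA. FPKM is a level per gene length and library size. In the same order, KRT14 had 851.5, 15.5 and 118.5 FPKM, KRT17 1427, 413 and 336, and DSP 90.1, 45.1 and 43.6. TP63 had 129.5, 59.9 and 155.4 FPKM, and EPCAM had 131, 194 and 147. The epithelial cadherin gene CDH1 had 74.5, 75.9 and 73.0 FPKM. Of the other cell types checked, PTPRC, the pan-leukocyte marker, had 2, 0 and 0 counts, and the fibroblast collagen COL3A1 had 0 counts in every library. The 6 fibroblast markers summed to 7.51, 11.9 and 14.9 FPKM, with COL1A1 highest in CAL27 and LUM in the resistant lines. The 4 endothelial markers summed to 0.437, 2.29 and 1.06 FPKM, nearly all of it CDH5 in the resistant lines. The 4 leukocyte markers summed to 41.6, 27.1 and 64.2 FPKM, nearly all of it CD68, which is not restricted to leukocytes. The 7 squamous epithelial markers summed to 5677, 1341 and 1600 FPKM with none at 0. The part of these differences in the results that follow was not tested.

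A dividing cell first licenses its origins, when the origin recognition complex, CDC6 and CDT1 load the MCM2 to MCM7 helicase onto DNA, and then fires them with CDC45 and the GINS complex. PCNA, loaded by replication factor C, holds the polymerases, and FEN1 and LIG1 finish the lagging strand. The genes of this machinery are switched on by E2F factors, while cyclin B, CDK1, the Aurora and Polo kinases and the checkpoint genes are switched on later by MYBL2 and FOXM1 together with the MuvB complex, which binds the CHR element of their promoters. In bulk RNA, fewer cells in a phase and less RNA of its genes per cell cannot be told apart.

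The promoters are shown because the elements named above lie in them. RefSeq promoters (GRCh38.p14) of 300 bases, from 250 before to 50 after the start, were at hand for 38 of the 45 genes and not for MCM4, MCM5, CCNE2, AURKA, FOXM1, BIRC5 and TTK. Searched on both strands were E2F motifs (TTTCCCGC, TTTGGCGC, TTTCGCGC and TTTGCCGC), the CHR motifs TTTGAA and TTCGAA, and the CCAAT box. An E2F motif was in 15 of the 24 S-phase promoters (62.5%) and in 2 of the 14 G2/M promoters (14.3%), against 3.33% of 27305 promoters of all genes. A CHR motif was in 1 of 24 S-phase promoters (4.17%, MCM6) and in 10 of 14 G2/M promoters (71.4%), against 16.6% of all. A CCAAT box was in 62.5% of the S-phase and 85.7% of the G2/M promoters, against 35.7%. A match describes the letters alone.

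Printed are the 150 bases before the start on the gene's own strand for the genes of each group with the largest ratio to CAL27 among those with a promoter, and for E2F1, added after its matches were seen. Capitals mark motif matches on either strand (ATTGG is CCAAT read on the opposite strand). ORC6 lies at chr16:46689509-46689658 (plus strand), GINS1 at chr20:25407523-25407672 (plus), E2F1 at chr20:33686386-33686535 (minus), CCNB2 at chr15:59104996-59105145 (plus) and MKI67 at chr10:128126424-128126573 (minus).
ORC6: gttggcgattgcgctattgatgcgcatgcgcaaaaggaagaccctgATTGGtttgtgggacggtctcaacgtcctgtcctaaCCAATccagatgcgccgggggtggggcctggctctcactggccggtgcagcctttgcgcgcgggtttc
GINS1: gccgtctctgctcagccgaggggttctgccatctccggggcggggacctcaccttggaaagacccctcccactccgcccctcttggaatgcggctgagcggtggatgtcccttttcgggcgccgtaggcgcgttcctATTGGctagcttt
E2F1: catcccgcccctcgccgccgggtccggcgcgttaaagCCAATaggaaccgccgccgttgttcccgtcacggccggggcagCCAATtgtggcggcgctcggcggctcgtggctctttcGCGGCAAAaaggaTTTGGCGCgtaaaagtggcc
CCNB2: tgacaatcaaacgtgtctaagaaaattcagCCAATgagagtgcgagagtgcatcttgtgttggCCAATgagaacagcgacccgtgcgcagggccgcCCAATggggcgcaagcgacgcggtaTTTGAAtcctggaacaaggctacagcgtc
MKI67: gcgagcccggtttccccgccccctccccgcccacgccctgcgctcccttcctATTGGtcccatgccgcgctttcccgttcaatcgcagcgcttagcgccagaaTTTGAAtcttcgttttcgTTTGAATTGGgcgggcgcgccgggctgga
The E2F1 stretch holds E2F matches at -33 on the opposite strand and at -20, counted from the start. CCNB2 holds 1 CHR match, at -29, after a row of 3 CCAAT boxes, and MKI67 holds CHR matches at -47 and -29, the second of which runs into a CCAAT box. The E2F match of GINS1 lies after its start, at 6, outside the printed bases, and ORC6 had none of the E2F letters in its window.

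Levels of different genes were compared in FPKM, which is per length and was scaled by the authors to the total counts alone. In CAL27 the 45 genes ran from 1.72 FPKM for E2F2, an E2F activator, to 235 for PCNA. E2F2 and PCNA were also the lowest and highest in CAL27/5FU (2.34 and 254) and in CAL27/OXA (1.45 and 354). The S-phase genes spread over this whole range, whereas the G2/M genes of CAL27 lay between 21.2 FPKM for TTK, a spindle checkpoint kinase, and 149 for CDC20, the activator of the anaphase-promoting complex. The median level of the S-phase genes was 26.3, 30.2 and 31.2 FPKM in the same order of libraries, and that of the G2/M genes was 51.7, 43.1 and 56.4. Together the 45 genes took 0.577%, 0.565% and 0.676% of all counts. After TMM scaling the S-phase genes summed to 2984, 2874 and 3511 CPM (counts scaled to a common library size) and the G2/M genes to 3206, 2511 and 3100 CPM. The S-phase sum was highest in CAL27/OXA and the G2/M sum lowest in CAL27/5FU on this scale and as shares of all counts (0.278%, 0.302% and 0.359% for S phase, 0.299%, 0.264% and 0.317% for G2/M). The other places in the order depend on the scaling, since by share the S-phase sum was lowest in CAL27 and the G2/M sum highest in CAL27/OXA.

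**Figure D1:**
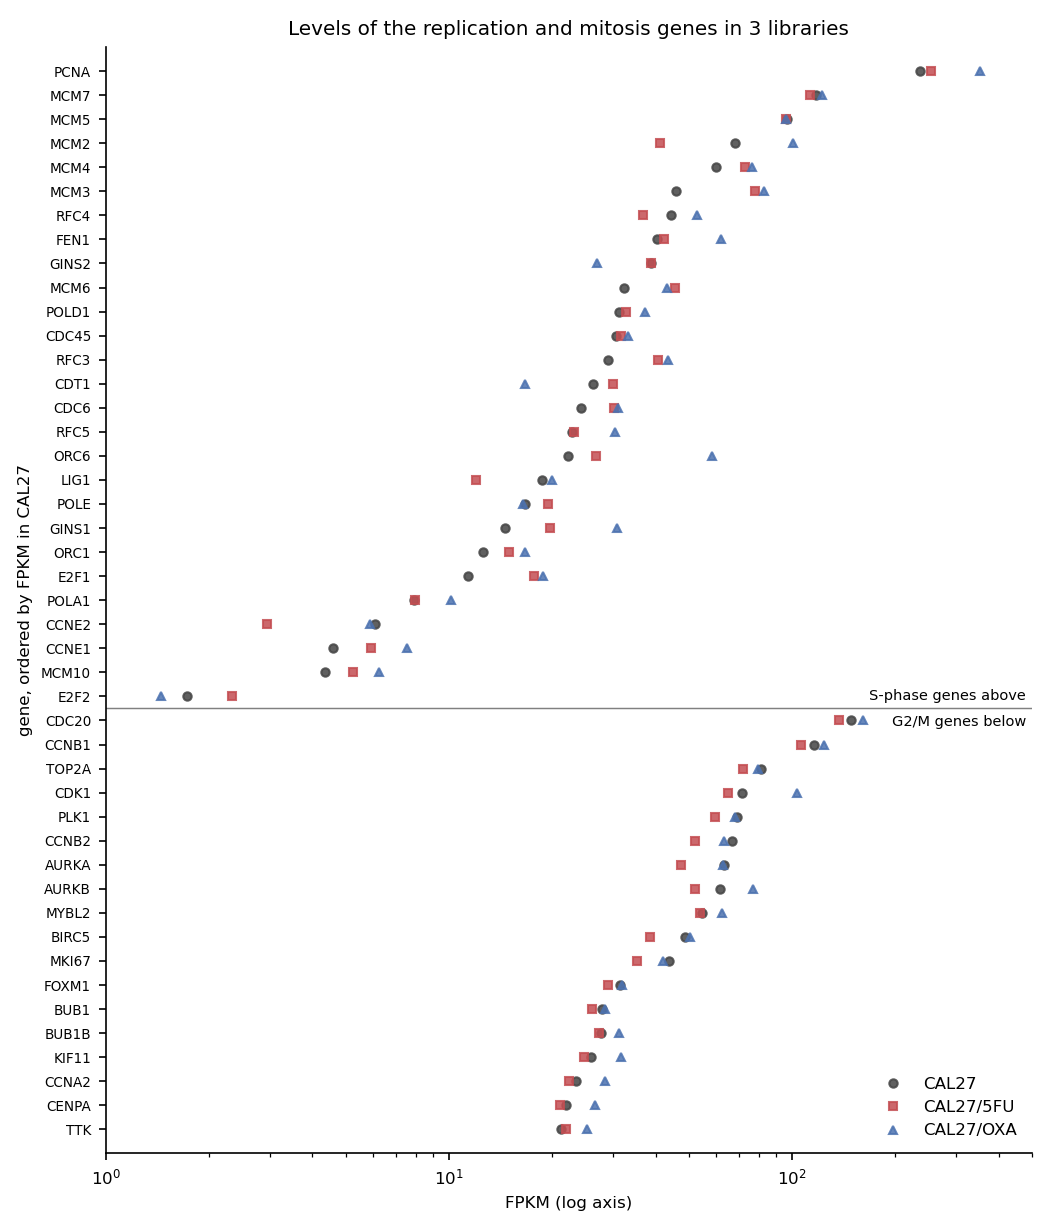
Level of each of the 45 genes in FPKM (horizontal, log axis) in the CAL27 (circle), CAL27/5FU (square) and CAL27/OXA (triangle) libraries, S-phase genes above the line and G2/M genes below it, each group ordered by its level in CAL27. S-phase levels run from E2F2 to PCNA, G2/M levels are closer together, and ORC6 and GINS1 stand out in CAL27/OXA.

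The first question was what the 5FU-resistant line shows against its parent. All 18 G2/M genes were lower in CAL27/5FU, each by a little, with a median log2 ratio of -0.29 and a range from -0.59 for AURKA to -0.12 for TTK. The counting interval of all 18 lay below 0, as did that of 5193 of the 13676 tested genes. Over all tested genes the median was -0.0035 and 50.3% had a ratio below 0. Under scaling by total counts the median of all genes moved to 0.17 and TTK turned positive, leaving 17 of 18 below 0. The 27 S-phase genes had a median of 0.02 and were split, with 13 below 0 and 14 above 0. Under total counts only 6 of the 27 were below 0, while 13 lay below the median of all tested genes with either scaling. The S-phase median was thus 0.31 above the G2/M median, and 18 S-phase genes lay above the highest G2/M gene and 3 below the lowest one.

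Few of these shifts were large. Past 1.5-fold, 1 of the 45 genes was higher in CAL27/5FU (2.22%) and 4 were lower (8.89%), against 15.2% and 14.0% of all tested genes. Past 2-fold there were 0 higher genes and 1 lower gene, against 8.46% and 6.72%. The quartiles of the G2/M ratios were 0.16 apart, those of the S-phase ratios 0.33 and those of all tested genes 0.66.

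AURKA, the Aurora kinase of the spindle poles, had 6170 counts in CAL27 against 4127 in CAL27/5FU and 6365 in CAL27/OXA. Against CAL27 its log2 ratio in CAL27/5FU was -0.59 (-0.64 to -0.53), and its level was lowest in CAL27/5FU. Under total counts this ratio was -0.42 and with DESeq2 size factors -0.58, neither past 1.5-fold. CCNB2, a cyclin B gene, had 4311, 3011 and 4256 counts and a ratio of -0.52 (-0.59 to -0.46). BIRC5, which encodes survivin of the chromosomal passenger complex, had 5341, 3770 and 5715 counts and a ratio of -0.51 (-0.57 to -0.45). MKI67, the proliferation marker Ki-67 and the gene with most counts among the 45 in every library, had 21836, 15770 and 21782 counts, a ratio of -0.48 (-0.51 to -0.45). For these genes the CAL27/5FU library was the lowest after scaling, and in CAL27/OXA, the largest library, AURKA, CCNB2, BIRC5 and MKI67 had ratios of -0.14, -0.21, -0.09 and -0.19 to CAL27. The remaining G2/M kinases followed with smaller differences: AURKB, the kinase of the passenger complex, at -0.41, PLK1 at -0.39 and CDK1 at -0.31. TOP2A, the topoisomerase that untangles chromosomes, was at -0.35, CDC20 and CCNB1 were at -0.29, FOXM1 at -0.28, and the checkpoint genes BUB1 and BUB1B at -0.27 and -0.19. CCNA2, the kinesin gene KIF11, the centromeric histone gene CENPA and MYBL2 lay between -0.24 and -0.19.

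Among the S-phase genes the lowest ratios were those of CCNE2, MCM2 and LIG1. CCNE2, one of the cyclin E genes, had 696 counts in CAL27 against 301 in CAL27/5FU and 700 in CAL27/OXA, and against CAL27 its ratio in CAL27/5FU was -1.21 (-1.42 to -1.02). Its exons share 1629 bases with INTS8 on the opposite strand, and whether reads were counted by strand is not given in the sources used here, so the CCNE2 counts are uncertain to that extent. INTS8 itself had 2731, 1848 and 1679 counts. CCNE1, the other cyclin E gene, had 359, 414 and 616 counts, a ratio of 0.20 (-0.01 to 0.41). In FPKM, CCNE1 stood at 0.751 times CCNE2 in CAL27, but at 2.0 times in CAL27/5FU and at 1.28 times in CAL27/OXA. The order of the cyclin E genes in each library, reversed in the resistant ones, carries the same uncertainty of the CCNE2 counts. LIG1, the DNA ligase of the lagging strand, had 2578, 1482 and 2859 counts, a ratio of -0.80 (-0.90 to -0.71). It was low in CAL27/5FU alone.

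The MCM2 to MCM7 subunits assemble into 1 ring, and their transcripts did not move together. MCM2 had 9955 counts in CAL27 against 5350 in CAL27/5FU and 15252 in CAL27/OXA, a ratio of -0.90 (-0.95 to -0.85) for CAL27/5FU and of 0.43 (0.39 to 0.46) for CAL27/OXA. MCM3 had 6054, 9149 and 11353 counts, with ratios of 0.59 (0.54 to 0.64) and 0.72 (0.67 to 0.76). MCM2 was lowest and MCM3 intermediate in CAL27/5FU, and both were highest in CAL27/OXA. MCM6 had ratios of 0.33 and 0.29, MCM4 0.11 and 0.21, MCM5 -0.18 and -0.14, and MCM7 -0.23 and -0.08. The ratio of MCM7 in CAL27/OXA turned positive under total counts (0.06). In FPKM, MCM7 was the highest subunit in all 3 libraries (118, 113 and 122). MCM6 was the lowest in CAL27 and CAL27/OXA (32.3 and 43.2), but in CAL27/5FU the lowest was MCM2 (41.1), at 0.528 times the median of the other subunits against 1.14 times in CAL27 and 1.21 times in CAL27/OXA. The highest subunit was 3.64 times the lowest in CAL27 against 2.75 times in CAL27/5FU and 2.83 times in CAL27/OXA. MCM2 shares 45 exonic bases with TPRA1 on the opposite strand, a gene with 2817, 1464 and 3584 counts, and 1113 bases with AC023593.1, which was not in the table under this name.

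**Figure D2:**
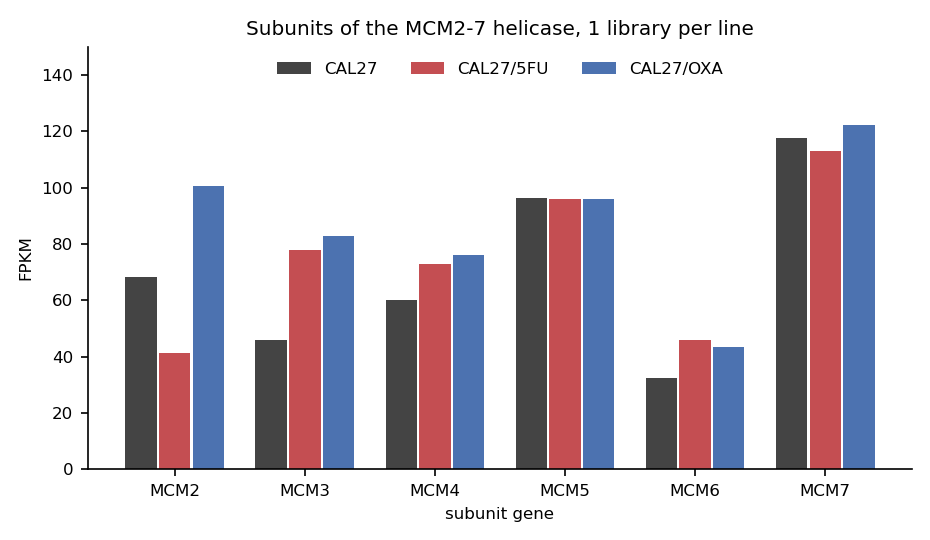
FPKM of the 6 subunit genes of the replicative helicase (bars from 0) in the CAL27, CAL27/5FU and CAL27/OXA libraries, 1 library per line and hence no error bars. MCM2 goes from 68.3 to 41.1 in CAL27/5FU and to 101 in CAL27/OXA, whereas MCM5 stays between 95.9 and 96.4.

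The highest S-phase ratios in CAL27/5FU besides MCM3 were those of E2F1, the activator of this gene group, with 1280, 1788 and 2199 counts and a ratio of 0.47 (0.37 to 0.58), and of MCM6. The clamp loader genes RFC3, RFC4 and RFC5 were at 0.31, -0.43 and -0.14. PCNA was at -0.06, and the polymerase genes POLA1, POLE and POLD1 were at -0.16, 0.06 and -0.11. The licensing genes CDC6, CDT1, ORC1 and ORC6 were all between 0.02 and 0.14, and the intervals of CDT1 and ORC1 included 0, as did that of the initiation factor MCM10 (0.10). The firing factors CDC45, GINS1 and GINS2 were at -0.12, 0.26 and -0.17, FEN1 was at -0.10 and E2F2 at 0.27. The signs of PCNA, POLA1, POLD1, CDC45, GINS2, FEN1 and RFC5 turned positive under total counts.

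The second question was the same for the oxaliplatin-resistant line. Against CAL27, the S-phase genes of CAL27/OXA had a median log2 ratio of 0.23, with 18 of 27 above 0, and the G2/M genes had a median of -0.03, with 8 of 18 above 0. Over all tested genes the median was 0.0055, and 49.5% were below 0. Under total counts 21 of 27 and 13 of 18 were above 0, while the median of all tested genes moved to 0.14. Below the median of all tested genes lay 9 S-phase and 10 G2/M genes with either scaling. The S-phase median was 0.26 above the G2/M median. Past 1.5-fold, 5 of the 45 genes were higher (11.1%) and 2 were lower (4.44%), all of them S-phase genes, against 14.1% and 17.0% of all tested genes. Under total counts these became 8 higher and 1 lower, and of all tested genes 2534 were then higher and 1887 lower. Past 2-fold there were 1 higher gene and 0 lower genes, against 6.54% and 9.28%.

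Licensing and firing genes had the largest ratios, and in opposite directions. ORC6, a subunit of the origin recognition complex, had 1509 counts in CAL27 against 1632 in CAL27/5FU and 4121 in CAL27/OXA, a ratio of 1.26 (1.17 to 1.35) for CAL27/OXA. GINS1 had 2010, 2420 and 4427 counts, a ratio of 0.95 (0.87 to 1.03). Both were highest in the CAL27/OXA library, whereas the next genes were lowest there. CDT1, the loading factor of the helicase, had 2941, 3005 and 1937 counts, a ratio of -0.79 (-0.88 to -0.71), and GINS2 had 1912, 1713 and 1388 counts, a ratio of -0.65 (-0.75 to -0.55) that was -0.52 under total counts, within 1.5-fold. GINS1 and GINS2 encode parts of 1 complex, and their FPKM ratio went from 0.377 in CAL27 and 0.506 in CAL27/5FU to 1.14 in CAL27/OXA. ORC1, the ATPase of the origin complex, was at 0.27, and its FPKM ratio to ORC6 went from 0.568 and 0.555 to 0.287. GMNN, which encodes geminin, the inhibitor of CDT1, was not among the 45 genes, and the FPKM ratio of CDT1 to GMNN was 0.697 in CAL27 against 0.733 in CAL27/5FU and 0.308 in CAL27/OXA.

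E2F1 and CCNE1 were just past 1.5-fold in CAL27/OXA, each at 0.59, with intervals of 0.49 to 0.69 and 0.40 to 0.78 that reach below the threshold. The intervals of MCM3 (0.54 to 0.64) and AURKA in CAL27/5FU and of GINS2 (-0.75 to -0.55) in CAL27/OXA also reach inside 1.5-fold. FEN1 was at 0.48, PCNA at 0.45 with 13144, 12676 and 20546 counts, RFC3 at 0.45 and MCM10 at 0.39. RFC5, POLA1, CDC6, RFC4 and POLD1 lay between 0.11 and 0.29. CDC45 and LIG1 had intervals that included 0, POLE was at -0.16, CCNE2 at -0.18 and E2F2 at -0.38. Of the G2/M genes, CDK1, the kinase that drives entry into mitosis, had the largest ratio, 0.41 (0.36 to 0.46), with 5403, 4392 and 8174 counts. The other 17 lay between -0.21 for CCNB2 and 0.18 for AURKB.

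The resistant lines were also compared with each other, which leaves out the CAL27 library except in the scaling and the filter. All 18 G2/M genes were higher in CAL27/OXA than in CAL27/5FU, with a median log2 ratio of 0.28 and a range from 0.17 to 0.71. Every counting interval of the 18 lay above 0, as did that of 4973 of the 13676 tested genes. The number of G2/M genes above 0 was 18 of 18 under each setting of scaling, filter, prior count and unit that was tried. Of the 27 S-phase genes, 22 were higher, with a median of 0.20, against a median of 0.0079 and 49.1% below 0 for all tested genes. The G2/M median was here above the S-phase median, by 0.08, a small difference beside the spread of the S-phase genes, whose quartiles were 0.44 apart. Past 1.5-fold, 7 of the 45 genes were higher (15.6%) and 2 were lower (4.44%), against 10.2% and 15.1% of all tested genes, and past 2-fold there were 3 and 0, against 4.18% and 8.38%.

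The 3 genes past 2-fold between the resistant lines were MCM2 at 1.33 (1.28 to 1.37), ORC6 at 1.15 (1.07 to 1.24) and CCNE2 at 1.03 (0.84 to 1.23). LIG1 followed at 0.76, then CDK1 at 0.71, GINS1 at 0.69 and AURKB at 0.59, while FEN1, at 0.58, was just under 1.5-fold. CDT1 was at -0.82 and E2F2, with 373, 453 and 327 counts, at -0.65. CAL27/OXA was the lowest of the 3 libraries for both genes, and for CDT1 the other libraries did not differ beyond counting error.

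**Figure D3:**
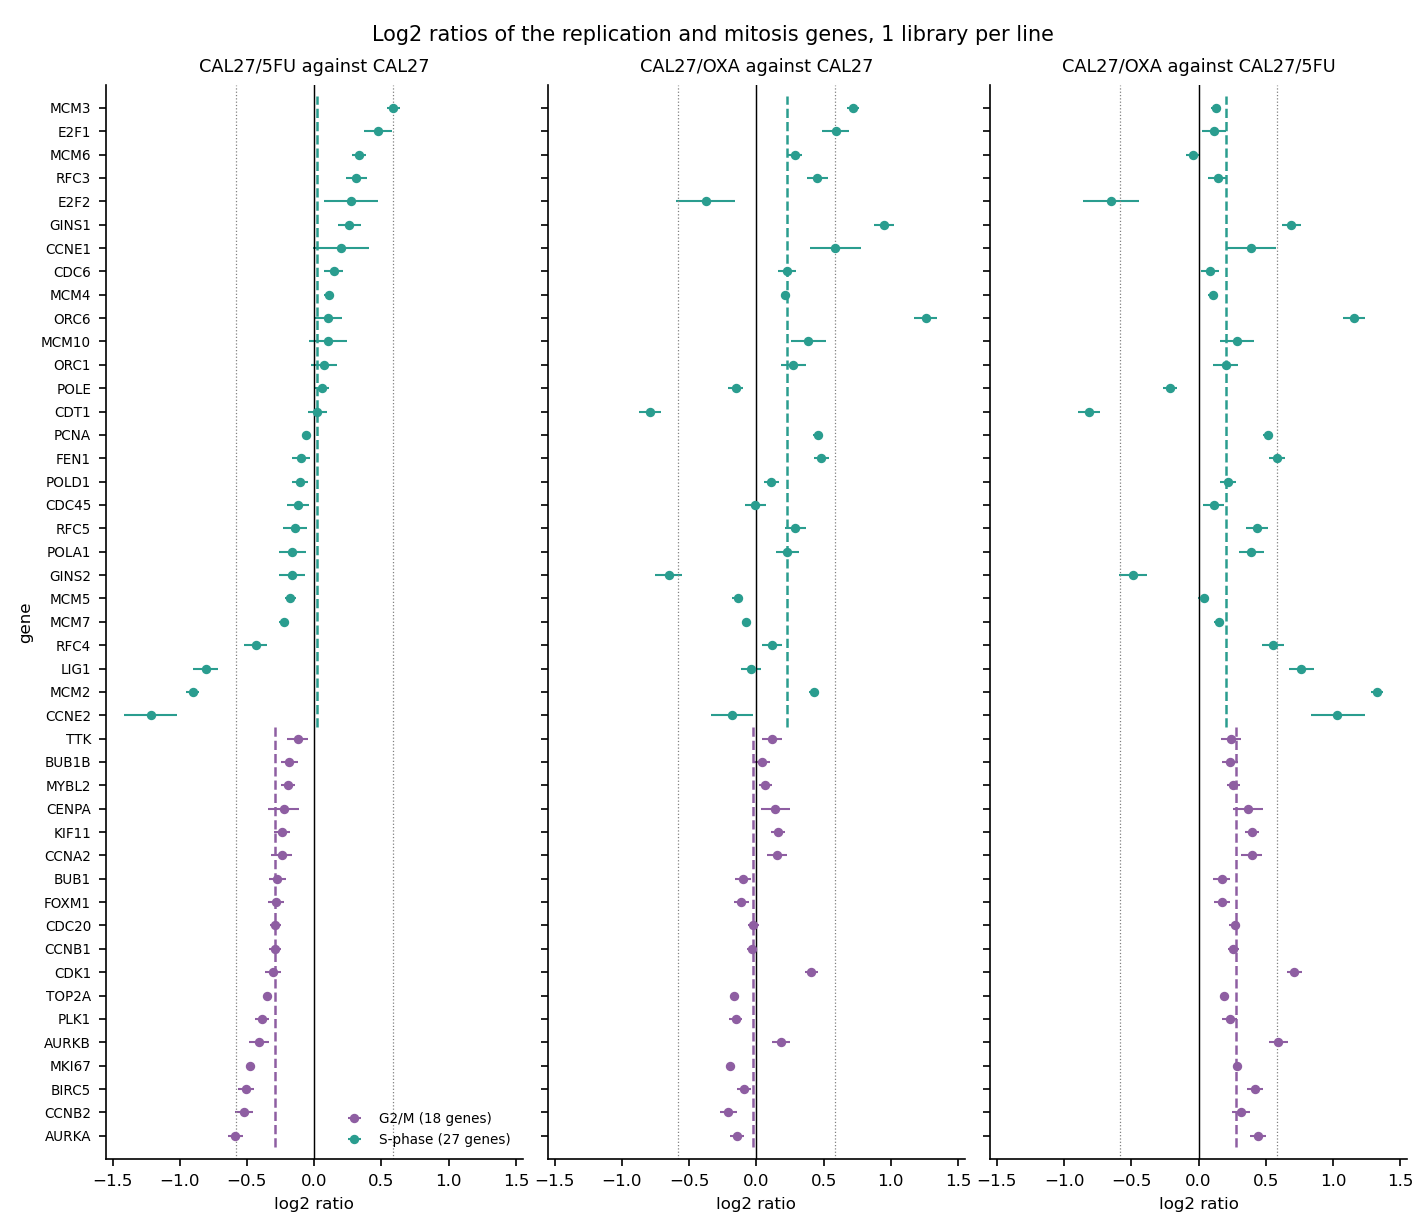
Log2 ratio of each of the 45 genes (points, with 95% counting intervals) in the 3 comparisons, S-phase genes above and G2/M genes below, ordered by the first comparison, with the median of each group as a dashed line and 1.5-fold as dotted lines. The G2/M genes sit left of 0 in the first panel, around 0 in the second and right of 0 in the third, while the S-phase genes are scattered in all 3.

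Several of the genes past 1.5-fold stood next to genes that differed the same way. Each gene was set beside the 10 tested genes nearest to it, 5 to its left and 5 to its right (GENCODE 29 positions, GRCh38). CDT1, on chromosome 16 from 88803213 to 88809258, had neighbours with a median log2 ratio of -1.27 in CAL27/OXA, 9 of the 10 being more than 1.5-fold lower. GINS2, on the same chromosome from 85676198 to 85690073, had neighbours at -0.91, again with 9 of 10 lower. ORC6, also on chromosome 16, from 46689643 to 46698394, had neighbours at 0.78 with 8 of 10 higher, and MCM3, on chromosome 6 from 52264009 to 52284881, had neighbours at 0.71 with 7 of 10 higher. Thus 4 of the 7 genes past 1.5-fold in CAL27/OXA had a neighbour median past 1.5-fold in the same direction. The matching share among all tested genes past 1.5-fold was not counted in any comparison, so the 4 of 7 has no direct reference. Of the 45 genes, 2 had neighbour medians past 1.5-fold higher and 4 lower in CAL27/OXA, and of 13392 tested genes with a position 3.02% and 4.5% did. Between the resistant lines, 1 of the 9 genes past 1.5-fold had such neighbours and 3 of 9 had a neighbour median of the same sign, while neighbour medians were past 1.5-fold higher for 1 of the 45 genes and lower for 3, and for 3.12% and 2.73% of the 13392 genes. The neighbours of GINS1 (-0.04), E2F1 (-0.04) and CCNE1 (0.12) were near 0. MCM5 had a ratio of -0.14 in CAL27/OXA and its neighbours a median of -1.01. CCNE2 had a ratio of -0.18 there and its neighbours a median of -0.90, with 8 of 10 more than 1.5-fold lower.

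In CAL27/5FU, 1 of the 5 genes past 1.5-fold had such neighbours, CCNE2, at -0.66. Neighbour medians were past 1.5-fold higher for 1 of the 45 genes and lower for 2, and for 2.14% and 3.47% of the 13392 genes. The neighbours of MCM2, on chromosome 3 from 127598223 to 127622436, had a median of -0.51, with 5 of 10 more than 1.5-fold lower, and those of LIG1, AURKA and MCM3 had medians of -0.17, -0.25 and 0.34. POLD1, at -0.11, stood among neighbours with a median of -0.79, and CDK1, at -0.31, among neighbours at 0.77. Of the neighbour medians of the 18 G2/M genes in CAL27/5FU, those of AURKA and MYBL2 were the lowest, -0.25 and -0.31. The part of the neighbourhood in these ratios was not tested.

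**Figure D4:**
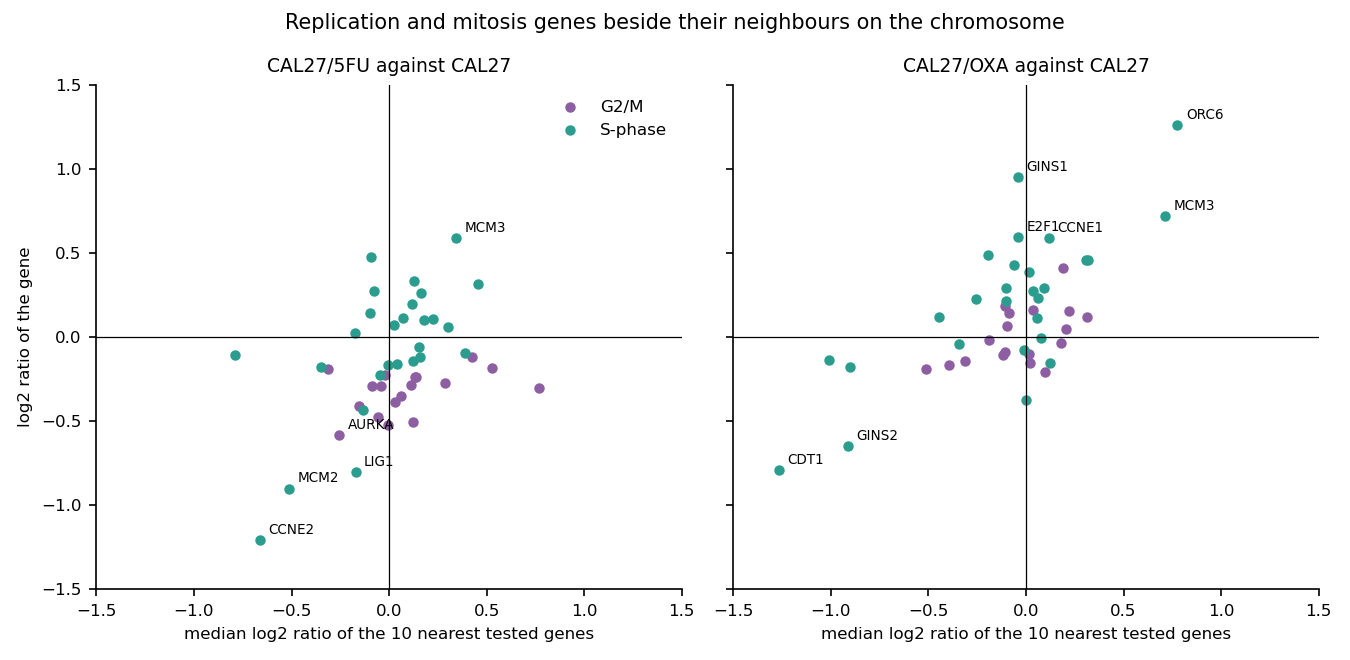
Log2 ratio of each of the 45 genes (vertical) against the median log2 ratio of its 10 nearest tested genes (horizontal) for each resistant line against CAL27, with genes past 1.5-fold named. CDT1, GINS2, ORC6 and MCM3 in CAL27/OXA lie far from 0 on both axes with the same sign, while the G2/M genes in CAL27/5FU lie below 0 over a wide range of neighbour medians.

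A further 125 genes of the cell cycle outside the 45 were read in 8 lists. Mitotic lists had lower medians in CAL27/5FU than replication lists. The median log2 ratio against CAL27 was 0.02 for 15 genes of origin licensing and firing, -0.07 for 19 genes of the replication fork, -0.31 for 10 genes of mitotic entry, -0.29 for 32 genes of the spindle and kinetochore and -0.49 for 15 genes of chromosome separation and mitotic exit. Past 1.5-fold, the shares of genes lower in these lists were 20.0%, 0.0%, 10.0%, 15.6% and 33.3%, against 14.0% of all tested genes, and the shares higher were 6.67%, 0.0%, 0.0%, 3.12% and 0.0%, against 15.2%. The spindle share lower was thus near that of all genes, and with 10 to 32 genes a list each share rests on 5 genes or fewer.

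In CAL27/OXA against CAL27 the medians of the same lists were 0.26, 0.25, 0.0045, 0.16 and 0.06. The shares higher past 1.5-fold were 13.3%, 15.8%, 10.0%, 9.38% and 6.67%, against 14.1% of all tested genes, and the shares lower were 0.0%, 0.0%, 10.0%, 0.0% and 0.0%, against 17.0%. Between the resistant lines all 5 medians were positive, from 0.21 for mitotic entry to 0.47 for chromosome separation and exit. The shares higher in CAL27/OXA were 13.3%, 0.0%, 10.0%, 25% and 26.7%, against 10.2%, and those lower were 0.0%, 0.0%, 0.0%, 3.12% and 0.0%, against 15.1%.

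The genes of each list with the largest ratios are given with the ratio in CAL27/5FU first and that in CAL27/OXA second, both against CAL27. Among licensing and firing genes, CDC7, the kinase that fires licensed origins, had 0.67 and 1.39, and GINS3 had -0.01 and 1.13. MTBP and TICRR, partners in origin firing, had -0.76 and -0.52, and -0.57 and -0.56. The helicase gene RECQL4 had -0.71 and -0.49, and GMNN had -0.05 and 0.38. At the fork, RPA1, a subunit of the single-strand binding protein, had -0.51 and -0.15, the polymerase genes POLD4, POLE2 and POLD3 had -0.44 and -0.47, 0.25 and 0.71, and 0.11 and 0.65, the primase gene PRIM2 had -0.43 and 0.10, and CLSPN (claspin) had 0.10 and 0.62.

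The CDC25 phosphatases, which activate CDKs, did not move together. CDC25C had -1.08 and -0.01, CDC25B -0.46 and -0.69, and CDC25A 0.58 and 0.61. CDC25A was the 1 gene of mitotic entry of 10 above 0 in CAL27/5FU. Under total counts 6 of the 10 were below 0, while the median of all tested genes moved from -0.0035 to 0.17. The kinase genes MELK and PBK had -0.07 and 0.51, and -0.16 and 0.36. Of the 32 spindle and kinetochore genes, 28 were below 0 in CAL27/5FU and 4 above 0, against 50.3% of all tested genes below 0. Under total counts, with the median of all tested genes at 0.17, 20 of the 32 were below 0. NDC80, a kinetochore gene on chromosome 18, was highest, at 1.07 (1.00 to 1.14) and 0.17, and all 10 of its nearest tested genes were more than 1.5-fold higher in CAL27/5FU, with a median of 2.20. SKA3 had 0.28 (0.16 to 0.41) in CAL27/5FU, and the intervals of CENPK and ASPM included 0. The kinesin gene KIFC1 had -0.78 and -0.21. The kinetochore and centromere genes CENPI, CENPK, SPC24, ZWINT and SKA1 had -0.73 and 0.26, 0.02 and 0.97, -0.66 and 0.36, -0.02 and 0.68, and -0.08 and 0.62.

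In chromosome separation and exit, CIT, the citron kinase of cytokinesis, had -0.76 and -0.13, and UBE2C, the ubiquitin-conjugating enzyme of the anaphase-promoting complex, had -0.68 and -0.23. The condensin genes SMC4, NCAPG and NCAPD2 had -0.69 and -0.22, -0.67 and 0.10, and -0.53 and -0.40. FZR1, an activator of the anaphase-promoting complex, had -0.46 and 0.27, ESPL1 (separase) -0.49 and -0.32, and SGO1 (shugoshin) 0.06 and 0.69.

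The 7 genes of nucleotide supply had medians of -0.20 in CAL27/5FU and 0.21 in CAL27/OXA. TYMS, the enzyme that 5FU blocks, had 3.52 and 0.07, and its neighbours had a median of 2.66 in CAL27/5FU, with 8 of 9 more than 1.5-fold higher. The part of the neighbourhood in this ratio was not tested. TK1 had -0.73 and -0.16, RRM2, a subunit of ribonucleotide reductase, -0.68 and -0.97, and DTYMK -0.20 and 0.44.

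**Figure D5:**
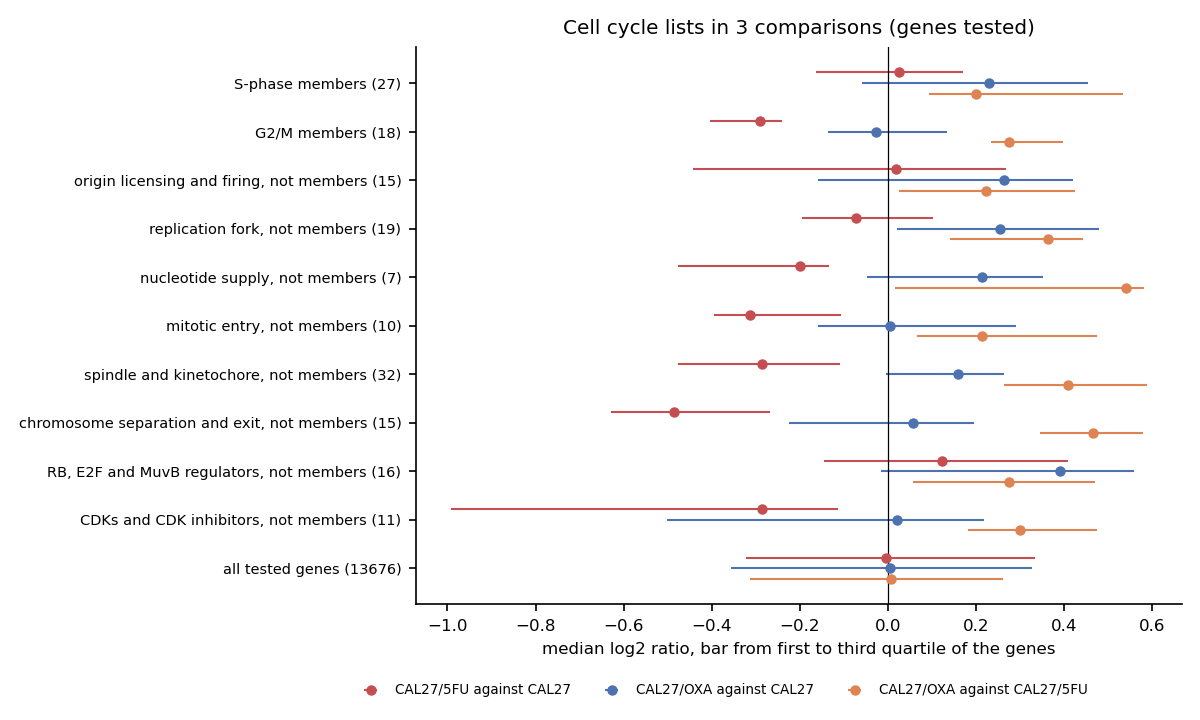
Median log2 ratio (point) and quartiles over genes (bar) of the S-phase and G2/M genes, of the 8 other lists and of all tested genes in the 3 comparisons, with the number of genes tested in brackets. The medians of the mitotic lists lie left of 0 for CAL27/5FU against CAL27 and right of 0 for CAL27/OXA against CAL27/5FU. Those of the replication fork, nucleotide supply and CDK lists do so too, and between the resistant lines the medians of all 8 other lists lie right of 0.

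The regulators were read last. Of 16 RB, E2F and MuvB genes, 2 were higher and 1 lower past 1.5-fold in CAL27/5FU (12.5% and 6.25%, median 0.12, against 15.2% and 14.0% of all tested genes), and 4 were higher and 1 lower in CAL27/OXA (25% and 6.25%, median 0.39, against 14.1% and 17.0%). E2F7, an E2F repressor, was at 0.39 and 1.37, and TFDP1, the partner that E2F factors bind DNA with, at -0.42 and 0.85. TFDP2, the other such partner, was at -1.16 and -0.59, E2F5 at 0.90 and -0.44, and LIN52, a MuvB subunit, at 0.63 and 0.93. Among 11 CDKs and CDK inhibitors, 4 were more than 1.5-fold lower in CAL27/5FU (36.4%, against 14.0%) and 3 in CAL27/OXA (27.3%, against 17.0%), and 0 were higher in either (against 15.2% and 14.1%). The 4 genes more than 1.5-fold lower in CAL27/5FU were inhibitors, as is all of this list but 3 kinases. CDKN1A, which encodes p21, was at -0.97 and -0.62, CDKN2B (p15) at -1.19 and -1.5, CDKN2D (p19) at -1.01 and -0.38, CDKN2C (p18) at -0.39 and 0.17, and CDKN1C (p57), with only 40, 13 and 20 counts, at -1.5 (-2.66 to -0.70) and -1.11. The other inhibitors stayed within 1.5-fold in both lines, with CDKN1B (p27) at -0.27 and -0.11, CDKN3 at -0.28 and 0.02, and CDKN2A (p16) at 0.05 and 0.25. The 3 kinases of this list, CDK2, CDK4 and CDK6 were at -0.29, 0.08 and 0.08 in CAL27/5FU and at 0.39, 0.33 and 0.19 in CAL27/OXA.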

How the data were processed

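Libraries were prepared with a NEBNext Ultra kit and sequenced on an Illumina platform. The submitters' processing notes name CASAVA 1.8, HISAT2 2.0.5 and GRCh38; the counting tool, annotation and strandedness are not given in the sources used here. The authors deposited read counts per gene symbol, without normalization, and FPKM values. For 14367 of 14367 genes with counts in all libraries, counts, FPKM and total gave 1 gene length within 0.1%, so the FPKM values are scaled by total counts alone. The 3 columns of other samples were not used.

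Counts were scaled with TMM (edgeR 4.0.16, R 4.3.3; factors 0.932, 1.05 and 1.02) and turned into log2 CPM (prior count 2). The filter kept genes averaging 10 counts or more. Intervals are exact Clopper-Pearson 95% intervals (scipy 1.17.1), and the ratios and intervals were tested on simulated data. The simulated counts held counting error alone, as the intervals assume, so spread between cultures was outside this check. No p-value was computed. Genes were named by rule: members with a whole interval past 1.5-fold, the 5 highest and lowest of each group, and the 3 largest of each other list and comparison, of which 1 gene is not reported here. All other members are given by value, and SKA3, ASPM, E2F4, RBL2, PKMYT1, CCNF, CDK4, CDK6, CDKN1B, CDKN2A and CDKN3 were named outside the rule after their values were seen. Members and lists were chosen with earlier results of these data known.

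Alternatives were DESeq2 1.42.0 size factors, total counts, no filter beyond 1 count, a prior count of 0.5, log2(FPKM + 1), 2-fold, and MYBL2 and CCNA2 counted as S-phase genes. Of several promoters of a gene, the first in the table was used. Of the 45 genes, 14 share exonic bases with another GENCODE 29 gene and 9 have a pseudogene named for them, with 0 of these pseudogenes in the table.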

Additional observations from a re-analysis of the deposited data

How the results depend on the processing

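No paired analysis was possible because each line has 1 library, so that the lines share fewer than 2 replicate numbers and no spread could be estimated. For the same reason no library could be left out. A change of size factors moves all genes alike, so that the difference between the S-phase and G2/M medians could not change with DESeq2 factors or total counts. Over all alternatives it ran from 0.24 to 0.32 in CAL27/5FU, from 0.24 to 0.29 in CAL27/OXA and from -0.08 to -0.06 between the resistant lines. DESeq2 size factors, no filter and a prior count of 0.5 left all 135 ratios of the 45 genes within their counting intervals, although AURKA in CAL27/5FU fell just under 1.5-fold with DESeq2. The medians themselves depend on the scaling. Against CAL27, total counts gave S-phase medians of 0.19 in CAL27/5FU and 0.36 in CAL27/OXA and G2/M medians of -0.12 and 0.11, while log2(FPKM + 1) gave S-phase medians of 0.19 and 0.35 and G2/M medians of -0.12 and 0.10. The median of all tested genes moved to 0.17 and 0.14 with total counts and to 0.12 and 0.10 with FPKM, and relative to it the G2/M median in CAL27/5FU was -0.29 and -0.24. With total counts the share of higher genes among all genes past 1.5-fold in CAL27/5FU went from 52.0% to 67.2%, and in CAL27/OXA from 45.2% to 57.3%. The sign of 17 of the 135 ratios changed with total counts and of 17 with FPKM, none of them past 1.5-fold. Members past 1.5-fold became 2 higher in CAL27/5FU with total counts and with FPKM, and 3 lower with these and with DESeq2. Of all tested genes, 2865 were higher and 1398 lower with total counts and 1610 and 860 with FPKM. With DESeq2 these were 2110 and 1906, against 2084 and 1921 with TMM. In CAL27/OXA the members past 1.5-fold became 8 higher and 1 lower with total counts and 7 higher and 1 lower with FPKM. Of all tested genes, 2534 were higher and 1887 lower with total counts and 1467 and 1151 with FPKM, against 1925 and 2330 with TMM. Between the resistant lines 6 were higher with total counts and with FPKM, and 1 was lower with FPKM. Of the 13676 tested genes, 1268 were then higher and 2201 lower with total counts. With FPKM these were 702 and 1134, against 1401 and 2060 with TMM. At 2-fold the numbers higher and lower were 0 and 1 in CAL27/5FU, 1 and 0 in CAL27/OXA and 3 and 0 between the resistant lines. With MYBL2 and CCNA2 as S-phase genes, the S-phase median in CAL27/5FU was -0.059. Counts of 301 or more limit the counting error of the 45 genes, but the intervals of those with the fewest counts are wide. That of CCNE1 in CAL27/5FU ran from -0.01 to 0.41. The spread between cultures is not known from 1 library per line.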

Other observations

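The 9 genes on chromosome 16 among the 45 and the other lists were read as values, in order of position, for CAL27/OXA against CAL27. CCNF, from 2429394, had a log2 ratio of -0.09 with neighbours at 0.04, PKMYT1, from 2968024, had -0.18 with neighbours at -0.72, and PLK1, from 23677656, had -0.16 with neighbours at 0.02. ORC6, from 46689643, had 1.26 with neighbours at 0.78, RBL2, from 53433977, had 0.48 with neighbours at 0.59, and GINS3, from 58295080, had 1.13 with neighbours at 0.61. E2F4, from 67192169, had 0.81 with neighbours at -0.42. GINS2 and CDT1, from 85676198 and 88803213, had -0.65 and -0.79 with neighbours at -0.91 and -1.27. In CAL27/5FU the neighbour medians of these 9 genes lay between -0.49 and 0.23. The chromosome was picked after its values were seen, and the number of copies was not measured.

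TFDP1, on chromosome 13, had a ratio of 0.85 in CAL27/OXA with neighbours at 0.77, and RRM2, on chromosome 2, had -0.97 with neighbours at -1.32. CDC7 (1.39) and E2F7 (1.37) had neighbours at 0.27 and 0.46.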
